A study of Orbicella faveolata with 48 samples.

Results

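Only 3 assembled coral transcripts were higher in every offshore control library than in any inshore control library of the mountainous star coral Orbicella faveolata. They were chosen by that order: of 87440 coral transcripts, 26353 had a mean of at least 2 CPM (counts scaled to a common library total) over the 48 libraries. Of these, 3 (0.0114%) had the lowest of their 6 offshore control values above the highest of their 18 inshore control values. Within a single day far more transcripts had this order in the controls: 0.93% on day 5 and 0.622% on day 31, and 0.0304% had it within each day taken separately. The 3 transcripts are OFAVBQ_DN195572_c1_g1_i1, OFAVBQ_DN214135_c2_g2_i2 and OFAVBQ_DN221888_c3_g2_i3, called DN195572, DN214135 and DN221888 from here on. The deposited tables give them no gene name, product or sequence, so what they encode is not described here. The label of a constant difference held by construction in the control libraries, and it held in the heated libraries for DN195572 alone.

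The study asked how corals of inshore and offshore sites in the Florida Keys differ in their tolerance of heat. Pieces of coral were acclimated, and warming then took 7 days up to the test temperature, while controls stayed at 30 °C. The 8 groups were inshore and offshore controls of 5 days at 30 °C, inshore and offshore heated corals of 5 days at 33 °C, inshore and offshore controls of 31 days at 30 °C, and inshore and offshore heated corals of 31 days at 32 °C. Each inshore group held 9 libraries and each offshore group 3. The inshore genotype labels were In1, In2, In3 and In4, and the offshore labels were O1, O2 and O5. Every library also carried a tag such as C2. All offshore tags began with C, and the inshore tags began with A, B, BLY or D. The offshore tags were C1, C2 and C5 on day 5 and C2, C4 and C5 on day 31, and the same tags stood in the control and the heated arm of a day. The heated libraries were therefore other libraries but not other corals, and all offshore values rest on 4 tags. Genotype labels did not always follow a tag between the days: tag C2 was labelled O2 on day 5 and O1 on day 31, while C5 was O5 on both.

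Reef-building corals house photosynthetic algae inside their cells and can lose them in warm water, a loss known as bleaching. Corals of neighbouring reefs can differ in heat tolerance through their own genotype, their algal partners and acclimatization to their site. A transcript that differs between habitats before any heat is often called a baseline difference, and within 1 such comparison habitat and the particular colonies sampled cannot be told apart. RNA came from whole tissue, so a lower level through fewer cells of a type and through less RNA per cell cannot be told apart either. The coral tissue itself could not be checked against marker genes, since the identifiers carry no names.

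Coral totals ran from 4726663 to 6686881 estimated counts per library, and 1 CPM therefore stood for about 5 to 7 counts. The second deposited table, marked as symbiont by its name, held 11.2% to 21.3% of the counts of the control libraries and 1.0% to 16.5% of those of the heated libraries. Some libraries stood apart over all coral transcripts. The control of tag C4 on day 31, an offshore library, correlated at 0.740 to 0.761 with the other 11 control libraries of its day, and at 0.752 and 0.751 with the offshore ones, C2 and C5. The heated B2 and B3 libraries of day 31 correlated at 0.749 to 0.812 with others, against 0.847 to 0.914 for other pairs with different labels. Tags B2 and B3 share the label In2 on day 31, yet correlated with each other at 0.893 and 0.897 in the 2 arms, where libraries of the same label otherwise reached 0.930 to 0.981. The habitat and heat values of day 31 and the number of transcripts meeting the rule are also given without them.

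DN195572 had by far the widest separation of the 3. In the offshore controls it stood at 16.9 CPM in C1, 17.6 in C2 and 17.3 in C5 on day 5, and at 17.2 in C2, 14.4 in C4 and 15.8 in C5 on day 31. The 9 inshore controls had a lowest value of 0, a median of 0.170 and a highest of 9.46 CPM on day 5, and a lowest of 0, a median of 4.56 and a highest of 10.9 CPM on day 31. The offshore controls thus lay close together and above every inshore control, and the inshore controls spread from nothing detected up to 10.9 CPM. On the log2(CPM + 1) scale, which is used for all differences below unless edgeR is named, the medians of offshore and inshore controls differed by 2.63. Their means differed by 2.50. The standard deviation on that scale was 0.10 over the 6 offshore controls and 1.52 over the 18 inshore controls, which are the values that chose the transcript. In the heated libraries, which entered the choice only through the mean level, it was 0.39 offshore and 1.43 inshore. Of all transcripts, 51.7% had a smaller one offshore and 95.9% a smaller one inshore.

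The inshore values of DN195572 followed the letter of the tag. Tags A gave 5.48 to 9.96 CPM over 12 libraries of both arms and days, and tags B gave 3.83 to 10.9 CPM over 6 libraries. Tags BLY gave 0 to 0.160 CPM over 6 libraries, and tags D gave 0 to 0.838 CPM over 12 libraries. The transcript was therefore at a moderate level in A and B corals and at or near 0 in BLY and D corals, in controls and heated libraries alike. A count of 0 in a library allowed a level of up to 0.481 to 0.635 CPM (3 counts of the library's total). Since tags B and BLY exchanged the labels In2 and In4 between the days, the levels went with the tag and not with the genotype label. The mean over all inshore controls, 3.94 CPM ± 4.21 (SD, n = 18), covers both kinds of coral.

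**Figure D1:**
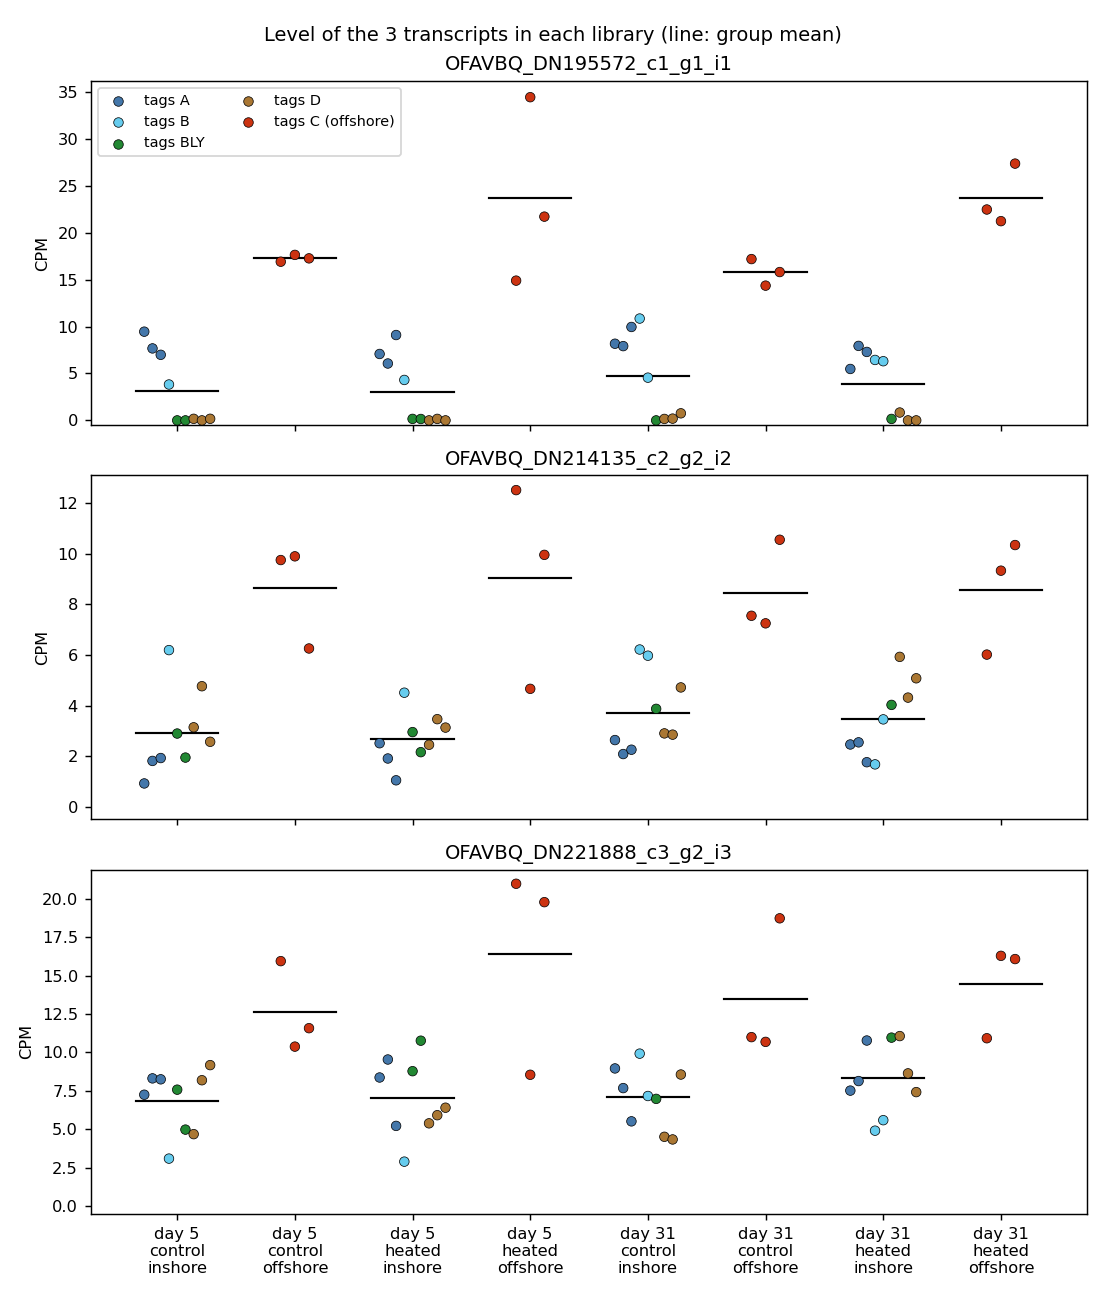
Level in CPM (vertical axis) of each of the 3 transcripts (panels) in every library, by day, arm and habitat (horizontal axis); points are libraries coloured by the first letters of the tag and lines are group means. The offshore libraries of DN195572 lie above all inshore libraries in all 4 pairs of groups, while its inshore points fall into a set at 3.83 CPM or more (tags A and B) and a set at 0.838 CPM or less (tags BLY and D).

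The order of the rule used the control libraries alone, and the heated libraries entered only the mean of at least 2 CPM. In the heated libraries DN195572 kept the order. Its offshore values were 14.9 CPM in C1, 34.5 in C2 and 21.7 in C5 after 5 days at 33 °C, and 22.5 in C2, 21.2 in C4 and 27.4 in C5 after 31 days at 32 °C. The heated inshore libraries had a lowest value of 0, a median of 0.160 and a highest of 9.10 CPM on day 5, and 0, 5.48 and 7.94 CPM on day 31. All 6 offshore values lay above all 18 inshore values, with 14.9 against 9.10 CPM at the border. Of the 26353 transcripts, 10 (0.0379%) had this order in the heated libraries and 1 (0.00379%) had it over all 48 libraries, and that one was DN195572. The offshore and inshore means differed by 3.03 log2 in the heated libraries, and 7 transcripts had a larger difference there. In CPM the offshore mean was 23.7 ± 6.61 (SD, n = 6) and the inshore mean 3.42 ± 3.49 (SD, n = 18), a ratio of 6.94. Against the inshore libraries of tags A and B alone, which express the transcript, the ratio was 3.55.

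DN214135 was narrowly separated in the controls. Its offshore controls stood at 9.75 CPM in C1, 9.90 in C2 and 6.26 in C5 on day 5, and at 7.55 in C2, 7.25 in C4 and 10.6 in C5 on day 31. The inshore controls had a lowest value of 0.925, a median of 2.57 and a highest of 6.19 CPM on day 5, and 2.09, 2.90 and 6.22 CPM on day 31. The lowest offshore control and the highest inshore control were thus 6.26 and 6.22 CPM, or 0.0081 log2 apart. Each was a rounded count of 33, so a single count would have reversed the order. The medians nevertheless differed by 1.31 log2 and the means by 1.22 log2. Unlike DN195572, the transcript was detected in every inshore control.

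In the heated libraries DN214135 kept the order within each day but not over both. Offshore it stood at 12.5 CPM in C1, 4.66 in C2 and 9.96 in C5 on day 5, and at 6.02 in C2, 9.33 in C4 and 10.3 in C5 on day 31. The heated inshore libraries had a lowest value of 1.05, a median of 2.51 and a highest of 4.51 CPM on day 5, and 1.68, 3.46 and 5.93 CPM on day 31. The offshore library C2 of day 5, at 4.66 CPM, lay just above the inshore libraries of its own day and below some of day 31. Over both days, 5 of 6 offshore values lay above every inshore value, and 2 of 18 inshore values reached the lowest offshore one. Without the heated C2 library of day 5 the order held over both days, so that 2 of the 3 transcripts were apart instead of 1. The heated means were 8.81 CPM ± 2.92 offshore (SD, n = 6) and 3.08 ± 1.29 inshore (SD, n = 18), and the log2 difference of 1.27 was exceeded by 264 transcripts (1.0%).

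DN221888 had the smallest difference, and its heated libraries did not keep the order. Its offshore controls stood at 15.9 CPM in C1, 10.4 in C2 and 11.6 in C5 on day 5, and at 11.0 in C2, 10.7 in C4 and 18.7 in C5 on day 31. The inshore controls had a lowest value of 3.10, a median of 7.58 and a highest of 9.18 CPM on day 5, and 4.34, 7.17 and 9.93 CPM on day 31. Every library expressed this transcript, and the border ran between 10.4 and 9.93 CPM, or 61 and 52 counts. The medians of the controls differed by 0.55 log2 and their means by 0.84 log2. Heated offshore libraries stood at 21.0 CPM in C1, 8.55 in C2 and 19.8 in C5 on day 5, and at 10.9 in C2, 16.3 in C4 and 16.1 in C5 on day 31. The heated inshore libraries had a lowest value of 2.90, a median of 6.41 and a highest of 10.8 CPM on day 5, and 4.91, 8.14 and 11.1 CPM on day 31. Both C2 libraries lay inside the inshore range of their day, the other 4 offshore libraries lay above all inshore libraries, and 7 of 18 inshore values reached the lowest offshore one. The heated means were 15.4 CPM ± 4.87 offshore (SD, n = 6) and 7.69 ± 2.41 inshore (SD, n = 18), with a log2 difference of 0.92 that 587 transcripts (2.23%) exceeded.

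The heated order of each day can be read against all transcripts. On day 5, 2 of the 3 transcripts had every offshore heated library above every inshore one, as had 0.915% of the 26353 transcripts. On day 31 it was again 2 of the 3, against 1.12%, and on both days the same 2, DN195572 and DN214135, against 0.0835%. The median of the 3 log2 differences was 1.27 in the heated libraries, where the median over all 26353 transcripts was 0.024, and 1.22 in the controls that chose them, where it was -0.099. The control and the heated libraries came from the same corals, so the heated order is a repeat in other libraries of those corals.

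**Figure D2:**
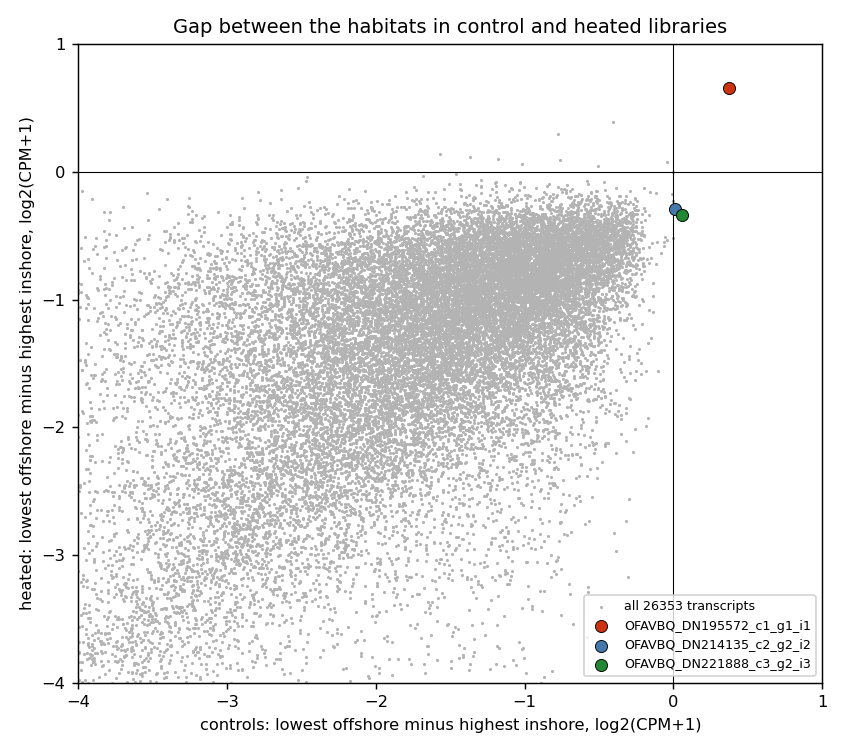
Lowest offshore minus highest inshore log2(CPM+1) in the control libraries (horizontal axis) and in the heated libraries (vertical axis); grey points are all 26353 transcripts, of which 1946 lie outside the axes, and coloured points are the 3 transcripts. A value above 0 means that the habitats do not overlap, which holds on both axes for DN195572 alone (0.37 and 0.65), while DN214135 and DN221888 lie just right of 0 and below 0 on the vertical axis (-0.29 and -0.34).

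A test with the genotype label as the unit called none of the 3. In edgeR's quasi-likelihood test on the heated libraries, with counts summed into 4 inshore and 3 offshore labels, 0 of 29143 transcripts (0%) passed an adjusted p of 0.05 as higher offshore on day 5, and 0 of 30124 (0%) on day 31. At an unadjusted p under 0.05, in either direction, there were 1688 and 1389 transcripts. DESeq2, run as an alternative, called 67 as higher offshore on day 5 and 43 on day 31, none of the 3 among them. For DN195572 the edgeR log2 difference was 3.06 (SE 1.24, adjusted p = 0.850) on day 5 and 2.52 (SE 1.14, adjusted p = 0.931) on day 31. For DN214135 it was 1.63 (SE 0.44, adjusted p = 0.676) and 1.19 (SE 0.38, adjusted p = 0.931). For DN221888 it was 1.31 (SE 0.46, adjusted p = 0.809) and 0.67 (SE 0.25, adjusted p = 0.931). All 6 differences were above 0. Their unadjusted p-values by edgeR ran from 0.00708 for DN214135 to 0.0412 for DN195572 on day 5, and from 0.0150 to 0.0600 for the same transcripts on day 31. Without the heated B2 and B3 libraries the day 31 differences were 3.23, 1.19 and 0.59 log2, in the same order of transcripts. The p-values measure the spread between labels, which no source says were separate colonies.

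Counting error mattered at the border of the rule. For DN195572 the lowest offshore control, C4 of day 31, held 75 counts, or 14.4 CPM with a 95% Wilson interval of 11.4 to 17.9. The highest inshore control, B2 of day 31, held 57 counts, or 10.9 CPM with an interval of 8.40 to 14.1. Even for the most widely separated transcript, then, the pair of border libraries had overlapping intervals. For DN214135 the border intervals were 4.46 to 8.80 CPM in C5 of day 5 and 4.49 to 8.85 in B2 of day 31. For DN221888 they were 8.08 to 13.3 CPM in C2 of day 5 and 7.57 to 13.0 in B2 of day 31. The same inshore library, the B2 control of day 31, was the highest inshore control for all 3, while 3 different offshore libraries were the lowest. No molecular identifiers marked the reads, so the intervals hold counting error alone.

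**Figure D3:**
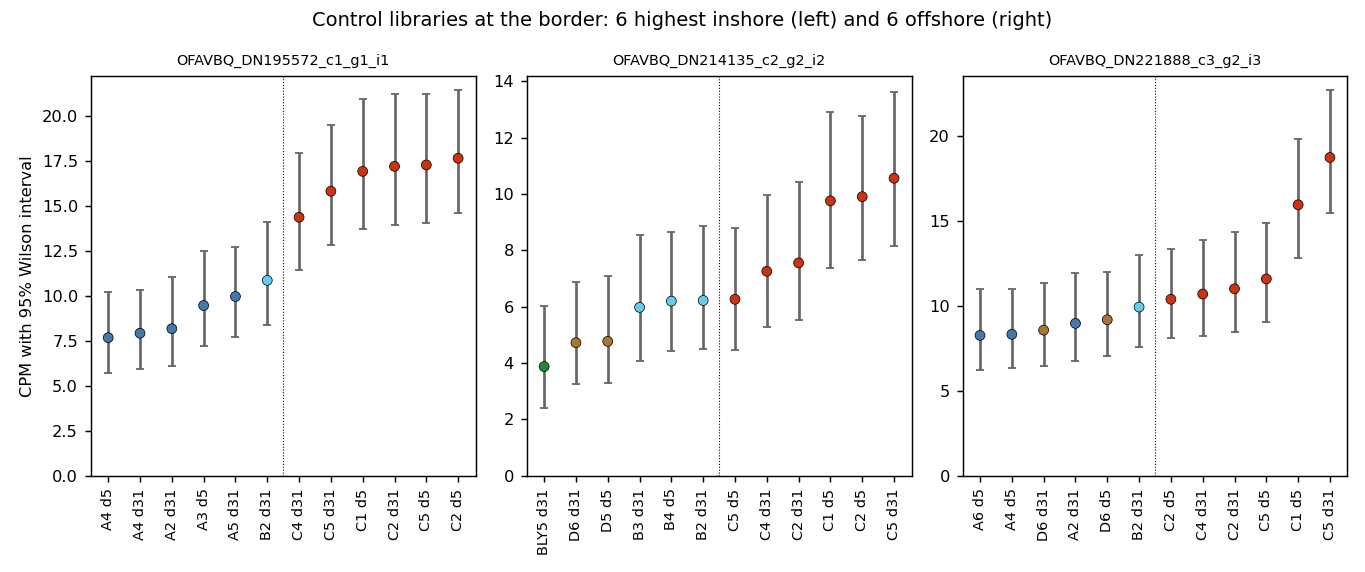
Control libraries nearest the border for each transcript (panels): the 6 highest inshore controls left of the dotted line and the 6 offshore controls right of it (horizontal axis: tag and day), as CPM with 95% Wilson intervals (vertical axis). Tags A are dark blue, B light blue, BLY green, D brown and C, the offshore tags, red; the intervals on both sides of the line overlap in all 3 panels, nearly fully for DN214135 (6.26 and 6.22 CPM).

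Which transcripts met the rule depended on single libraries. With the control of C4 on day 31 left out, 19 of the 26353 transcripts met it. Of these, 5 (26.3%) were apart in the heated libraries of the same corals as well, against 10 (0.0379%) of all 26353. The number meeting the rule was 13 without C1, 5 without C2 and 6 without C5 of the day 5 offshore controls. It was 5 without A6 and 7 without B4 of the day 5 inshore controls, and 7 without B2 and 6 without B3 of day 31. Each of the other 16 control libraries, left out alone, gave 3 or 4. DN195572, DN214135 and DN221888 were among them every time, which was fixed in advance. Leaving out a library can only add transcripts to this rule and cannot remove any. With scaling of the totals by TMM, edgeR's correction for composition, 8 transcripts met the rule, the 3 included. Only 2 would have met it at a mean of at least 5 CPM and 4 at a mean of at least 1 CPM.

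Just outside the rule stood 11 transcripts within 0.1 log2 of the border. Of these, 3 had a difference of exactly 0, since they had no counts in any of the 18 inshore controls and none in 3 to 5 of the 6 offshore controls, while their highest offshore control reached 45 to 72.5 CPM. The other 8 had a highest inshore control above the lowest offshore one. The closest missed by 150.68 against 150.75 CPM, in the C4 control of day 31 and the B4 control of day 5. Another missed with 6.09 CPM in that C4 library against 6.32 CPM in the D5 control of day 31, and its heated libraries were apart, with 6.998 CPM as the lowest offshore and 6.58 CPM as the highest inshore value. DN214135, inside the rule by 6.26 against 6.22 CPM, and the closest transcript outside it thus lay on different sides of the border by less than the counting error of 1 library.

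None of the 3 transcripts passed the test for a heat change. Since the controls of these comparisons also chose the transcripts, the values are given as a description. In edgeR's model of the 24 libraries of a day, which fitted every genotype label and took the effect of heat separately inshore and offshore, 0 of the 3 passed an adjusted p of 0.05 in any of the 4 heat comparisons. None had an unadjusted p under 0.05, and DESeq2 called none. Among all transcripts tested, the shares called higher and lower were 4.8% and 5.3% inshore on day 5, 1.18% and 1.37% offshore on day 5, 1.11% and 1.26% inshore on day 31, and 0.00852% and 0.0227% offshore on day 31. With the tag as a replicate block, which pairs the arms, none of the 3 was called either, while the numbers over all transcripts moved from 409 higher and 474 lower to 232 and 305 offshore on day 5, from 391 and 445 to 77 and 77 inshore on day 31, and from 3 and 8 to 4 and 26 offshore on day 31. DN195572 had offshore heat changes of 0.38 log2 (SE 0.28, adjusted p = 0.541) on day 5 and 0.36 (SE 0.43, adjusted p = 0.822) on day 31, and inshore changes of -0.08 (SE 0.25) and -0.11 (SE 0.32). DN214135 had offshore changes of 0.0046 (SE 0.31) and -0.23 (SE 0.30) and inshore changes of -0.11 (SE 0.21) and -0.011 (SE 0.19). DN221888 had offshore changes of 0.31 (SE 0.26) and -0.10 (SE 0.26) and inshore changes of 0.0020 (SE 0.17) and 0.30 (SE 0.16). Every change was within about 2 of its standard errors of 0.

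Single libraries moved these values. The offshore change of DN195572 on day 5 was 0.0075 log2 without the control of C2 and 0.030 without its heated library, and 0.66 without either library of C1. On day 31 it was 0.63 without the control and 0.65 without the heated library of C4, and 0.13 and 0.10 without those of C5. DN214135 and DN221888 offshore also depended on the tags of day 5: without the control of C2 their changes were 0.44 and 0.52, and without the control of C5 they were -0.29 and 0.11. Without the C4 control and the heated B2 and B3 libraries, the day 31 changes offshore were 0.63 for DN195572, -0.13 for DN214135 and -0.077 for DN221888. Inshore they were -0.32, 0.19 and 0.43 in the same order, by edgeR with adjusted p of 0.707, 0.619 and 0.196. The unadjusted p of DN221888 inshore was then 0.0227, against 0.0738 with all libraries.

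Tag by tag, DN195572 was higher in the heated than in the control library in 2 of 3 offshore tags on day 5, with a mean change of 0.36 log2 ± 0.55 (SD). On day 31 it was higher in 3 of 3, with a mean of 0.55 ± 0.19 (SD) and changes of 0.37 in C2, 0.53 in C4 and 0.75 in C5. Of the inshore tags, 5 of 9 on day 5 and 3 of 8 on day 31 were higher. In every BLY and D pair 1 library held 0 counts and the other 1, so these directions rest on single counts. Tag A4 on day 31, counted as higher, stood at 7.92 CPM in the control and 7.94 under heat. The day 5 C2 pair moved in opposite ways: DN195572 stood at 17.6 CPM in the control and 34.5 under heat, while DN214135 stood at 9.90 and 4.66 CPM. The heat effects of the habitats could be compared directly. Offshore minus inshore, by edgeR, the difference for DN195572 was 0.46 log2 (SE 0.38, adjusted p = 0.989) on day 5 and 0.47 (SE 0.54, adjusted p = 0.718) on day 31. For DN214135 and DN221888 these differences were 0.11 (SE 0.37) and 0.31 (SE 0.31) on day 5, and -0.22 (SE 0.35) and -0.40 (SE 0.31) on day 31, with adjusted p from 0.559 to 1. None passed the threshold, and a p that misses it does not show that the habitats responded alike.

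**Figure D4:**
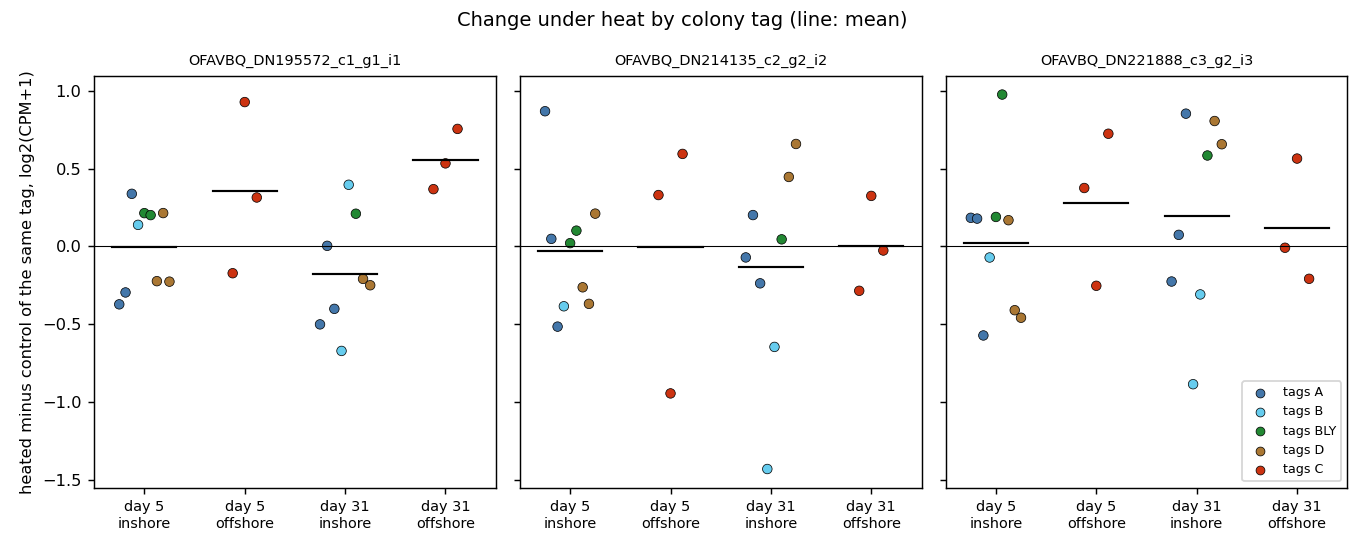
Heated minus control log2(CPM+1) of the same tag (vertical axis) for each transcript (panels), by day and habitat (horizontal axis); points are tags coloured by their first letters and lines are means. The offshore points of DN195572 on day 31 are all above 0 (0.37 to 0.75), while the points of the other groups lie on both sides of 0.

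The levels of the 3 transcripts were only partly alike. Over the 24 heated libraries their levels correlated pairwise at Spearman's rho of 0.31 (DN195572 with DN214135), 0.38 (DN195572 with DN221888) and 0.57 (DN214135 with DN221888), values that include the habitat difference all 3 share. Some other transcripts were more like each of them, but the highest of many values cannot be weighed against the rho of a single pair. The highest rho with any of the 26353 was 0.906 for DN195572, 0.850 for DN214135 and 0.839 for DN221888, and 21, 15 and 4 transcripts reached 0.8. Libraries of 1 coral share their genotype, so these are descriptions over 24 points that are not independent.

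Over the heated inshore libraries, which are not independent since several come from 1 genotype, higher DN214135 went with lower algal RNA. The second table's share fell to 1.0% to 8.47% in heated offshore libraries and to 2.67% to 16.5% in heated inshore ones. Over the 18 heated inshore libraries, Spearman's rho with the algal to coral ratio was -0.67 for DN214135, 0.36 for DN195572 and -0.10 for DN221888. Over all 24 heated libraries it was -0.75, -0.31 and -0.42 in the same order, values that include the habitat difference. Over all 36 inshore libraries it was -0.07, 0.06 and -0.20, and over all 12 offshore libraries 0.03, -0.41 and -0.05. Over the 6 heated offshore libraries it was 0.09, 0.14 and 0.09. DN214135 was low in tags A in both arms, at 1.05 to 2.55 CPM in 6 heated and 0.925 to 2.64 CPM in 6 control libraries. The part of such differences between corals in the heated inshore rho was not tested. The part of algal content in the heated difference of DN214135 was not tested.

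None of the 3 was among the upper part of the transcripts by mean CPM, a scale that is not corrected for transcript length. DN195572, DN214135 and DN221888 stood at the 41.3rd, 26.3rd and 45.1st percentile among the 26353 transcripts. Each was 1 of several features assembled into a common cluster, going by the identifiers, with 1, 3 and 1 other features, all at a mean of 2.0 CPM or less. Reads can be divided between features by the estimate, and which features shared reads with these 3 is not known. The other feature in the cluster of DN195572 had a mean of only 0.0034 CPM. Of the 48 values, 22 were not whole for DN195572, 40 for DN214135 and 5 for DN221888 (tolerance 0.01), so DN214135 in particular shared reads with other features and its level is uncertain to that extent.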

How the data were processed

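RNA of whole tissue was extracted with the RNAqueous kit and made into KAPA Stranded mRNA-Seq libraries (per the labels' protocols). Values are the authors' deposited estimated counts per assembled transcript, in 1 table for coral (87440 features) and 1 marked as symbiont (93246 features). The table names give kallisto, and the submitters' processing notes name Trimmomatic 0.36 and RSEM with no role; the reference is not given in the sources used here. Of these counts, the values that were not whole (23.6% and 3.07%) were rounded for all tests. Coral column BL6 was taken for tag BLY6.

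CPM was taken over each coral column total, and differences on log2(CPM + 1). Habitats were compared within the heated arm on counts summed per genotype label, with edgeR 4.0.16 (R 4.3.3): TMM, filterByExpr, a quasi-likelihood F test and Benjamini-Hochberg adjustment over all tested transcripts at 0.05. Heat was tested on the 24 libraries of a day with a term for each label. As alternatives, DESeq2 1.42.0, RLE size factors, no filter, libraries as replicates, both days together, the tag as a replicate block, other level minimums and leaving out libraries or labels were run. Leaving out single control libraries from the rule, and treating or leaving out C4, B2 and B3 separately, were chosen after seeing the data. The tests were tried on simulated counts. Libraries of 1 tag deviated together in both arms: their deviations correlated at 0.49 to 0.77 over 12 pairs of day 5 and at 0.36 to 0.75 over 11 pairs of day 31. Different tags of the same label are not set beside these values, so a shared tag and a shared genotype cannot be told apart by them. Over 156 pairs of libraries of a group, chi-square per degree of freedom was at least 3.28, so no pair agreed within sampling noise. The identifiers to print were the 2 with the largest control median difference and the 2 with the smallest heated difference, which cover all 3. The transcripts, lists and tests were chosen with earlier results of these data known. Wilson intervals (95%) and the limit for a count of 0 (3 counts) cover counting error only. Gene names, sequences and the corals' positions were not used here.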

Additional observations from a re-analysis of the deposited data

How the results depend on the processing

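No alternative called any of the 3 transcripts in the heated habitat comparison or under heat. Over 78 alternatives the heated habitat differences stayed above 0 (0.55 to 4.2 log2), with a lowest adjusted p of 0.0907 (DN214135, libraries as replicates, day 5). The number of transcripts meeting the rule was 8 with TMM scaling and 3 to 19 with 1 control library left out. The number apart in the heated libraries was 1 or 2 with 1 heated library left out. Leaving out a library can only raise either number, so their lower ends do not measure stability. Over 210 alternatives of the heat changes, 29 turned the sign of a small change, the cause was not tested, and the lowest adjusted p was 0.195. Without the filter these were -0.0242 for DN221888 inshore and -0.0339 for DN214135 offshore on day 5. For DN214135 inshore on day 31 they were 0.00928 with RLE size factors, 0.0169 with DESeq2 and 0.191 without the C4 control and the heated B2 and B3 libraries. With 1 library left out, DN195572 inshore ran from -0.188 to 0.0443 on day 5 and from -0.289 to 0.0107 on day 31, DN221888 inshore on day 5 from -0.0884 to 0.0850, DN195572 offshore from 0.00746 to 0.662 on day 5 and from 0.102 to 0.647 on day 31, DN214135 offshore on day 5 from -0.290 to 0.466, and DN214135 inshore on day 31 from -0.0725 to 0.134. With the tag as a replicate block, 0 of the 3 were called in all 4 heat comparisons, and the block changed no call of the 3. Each feature had an assembled gene of its own by the identifiers, so the planned test on summed isoforms was not run. Depth is a limit at the border of the rule, where values rest on 33 to 75 counts.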

Other observations

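Besides DN195572, 9 other transcripts had all 6 offshore heated libraries above all 18 inshore heated ones. Their offshore minus inshore means differed by 0.62 to 2.51 log2 in the heated libraries, where the order that picked them fixed the sign. In the controls, where it did not, the means differed by 0.35 to 2.42 log2, so all 9 were higher offshore on average there. The share of all transcripts with a higher offshore mean in the controls was not counted, and their median difference there was -0.099. In the controls the lowest offshore value lay below the highest inshore one by 0.045 to 1.57 log2 in these 9. The lowest offshore control was the C4 library of day 31 for each of the 9, the library that correlated least with the other offshore libraries. How often this library was the lowest offshore control over all transcripts was not counted, and its part in the missed order was not tested. The most separated of them in the heated libraries, OFAVBQ_DN201653_c4_g1_i1, had a lowest offshore value of 4.22 CPM and a highest inshore value of 2.98 CPM there, and 3.50 CPM in the C4 control against 4.98 CPM in the BLY6 control of day 5. OFAVBQ_DN216343_c3_g3_i1, the most abundant of the 9, stood at 52.1 CPM or more offshore and at 42.2 CPM or less inshore under heat, and at 31.3 CPM in the C4 control. Both were chosen for printing after their values were seen.

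Of the 19 transcripts that met the rule without the C4 control, 18 had a higher mean offshore than inshore in the heated libraries. The share of all 26353 transcripts with a higher offshore mean there was not counted, and their median difference was 0.024 log2. The C4 control was left out after seeing the data, and the heated libraries came from the same corals as the controls.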
